A study of Mus musculus with 8 samples.

Results

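Chromatin accessibility in the medial ganglionic eminence (MGE) was compared with that in the lateral ganglionic eminence (LGE) of the mouse embryo. The comparison set 2 MGE samples against 2 LGE samples, out of 8 samples in the series, and held 10310 MGE and 11346 LGE nuclei of 39253 in all. The 2 caudal ganglionic eminence (CGE) samples with 8543 nuclei were fitted beside them as a further group, so that 6 samples set the spread. These 6 samples were wild-type (WT) brain tissue at E12.5 (embryonic day), with no allele, transgene or treatment named, and were dissected by region without a sort. The 2 cortex (CTX) samples, of 2 ages, stayed out of the fit. Whether a sample came from 1 embryo or from a pool was not given in the sources used here, so the p-values measure the spread between these samples, which may be technical. The assay was single-nucleus ATAC-seq, in which a transposase cuts open chromatin and the cuts are counted per nucleus.

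The ganglionic eminences are the ventral swellings of the embryonic telencephalon that produce GABAergic neurons. The MGE is patterned by Sonic hedgehog signalling and by Nkx2-1, a homeodomain factor that acts upstream of the LIM homeodomain genes Lhx6 and Lhx8, and it gives rise to cortical interneurons and to neurons of the pallidum. The LGE gives rise to striatal projection neurons and olfactory bulb interneurons, and its lineages express Meis2, a TALE homeodomain factor. Accessible regions away from gene starts are often enhancers, the elements through which such factors act.

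The results turn on regions away from gene starts, and 8 of them are shown with 300 bases each of the reference genome (GRCm38, + strand). Each window is centred on the stretch covered by the peaks of the most samples, and capitals mark 6 short motif words. The words were CACTTNA for NKX2, TAATTA for homeodomain factors, TGACAG for MEIS, CAGCTG for the E-box of bHLH factors, ACAATG for SOX and GTTGCC for RFX, each searched on both strands. No word overlaps another in a window shown here. The first 5 regions were more accessible in MGE and the last 3 in LGE, and they were chosen as the largest folds or the smallest p at genes of interest.
Downstream of Nkx2-1, chr12:56440170-56440469: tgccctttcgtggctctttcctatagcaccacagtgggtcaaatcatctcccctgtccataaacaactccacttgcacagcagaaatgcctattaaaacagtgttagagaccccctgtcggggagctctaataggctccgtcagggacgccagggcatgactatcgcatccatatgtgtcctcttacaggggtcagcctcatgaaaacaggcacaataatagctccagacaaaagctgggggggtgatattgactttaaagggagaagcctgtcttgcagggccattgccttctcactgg
Near Bcan, chr3:88002570-88002869: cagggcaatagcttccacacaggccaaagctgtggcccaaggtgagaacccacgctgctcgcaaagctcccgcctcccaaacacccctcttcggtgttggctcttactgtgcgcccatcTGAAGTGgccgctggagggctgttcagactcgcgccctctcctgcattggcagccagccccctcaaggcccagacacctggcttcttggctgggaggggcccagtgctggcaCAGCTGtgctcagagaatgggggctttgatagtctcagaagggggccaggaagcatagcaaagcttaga
Upstream of Lhx8, chr3:154381506-154381805: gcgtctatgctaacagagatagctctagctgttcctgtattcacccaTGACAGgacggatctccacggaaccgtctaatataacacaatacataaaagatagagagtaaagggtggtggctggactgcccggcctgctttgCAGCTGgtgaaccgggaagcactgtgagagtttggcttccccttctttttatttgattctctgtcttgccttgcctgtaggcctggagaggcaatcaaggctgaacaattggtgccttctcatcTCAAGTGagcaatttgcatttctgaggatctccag
Intron of Ebf1, chr11:44684437-44684736: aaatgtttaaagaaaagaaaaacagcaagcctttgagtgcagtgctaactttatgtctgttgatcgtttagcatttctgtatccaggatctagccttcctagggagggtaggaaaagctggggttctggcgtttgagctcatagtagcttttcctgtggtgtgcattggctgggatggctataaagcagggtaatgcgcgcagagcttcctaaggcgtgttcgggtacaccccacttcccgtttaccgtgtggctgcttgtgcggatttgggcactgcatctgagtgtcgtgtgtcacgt
Intron of Elp4 near Pax6, chr2:105726738-105727037: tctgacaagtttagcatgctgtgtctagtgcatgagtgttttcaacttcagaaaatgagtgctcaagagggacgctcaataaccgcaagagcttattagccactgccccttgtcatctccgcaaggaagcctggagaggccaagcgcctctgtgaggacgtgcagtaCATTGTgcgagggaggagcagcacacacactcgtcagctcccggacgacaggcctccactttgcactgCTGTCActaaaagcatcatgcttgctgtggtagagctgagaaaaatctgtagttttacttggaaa
Intron of Intu, chr3:40667034-40667333: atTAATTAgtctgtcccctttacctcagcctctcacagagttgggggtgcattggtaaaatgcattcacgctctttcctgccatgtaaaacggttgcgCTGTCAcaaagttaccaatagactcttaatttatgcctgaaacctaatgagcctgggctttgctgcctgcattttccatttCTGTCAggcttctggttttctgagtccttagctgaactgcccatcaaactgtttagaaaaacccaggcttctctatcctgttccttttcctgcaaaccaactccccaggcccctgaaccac
Near Zfp36l1, chr12:80071049-80071348: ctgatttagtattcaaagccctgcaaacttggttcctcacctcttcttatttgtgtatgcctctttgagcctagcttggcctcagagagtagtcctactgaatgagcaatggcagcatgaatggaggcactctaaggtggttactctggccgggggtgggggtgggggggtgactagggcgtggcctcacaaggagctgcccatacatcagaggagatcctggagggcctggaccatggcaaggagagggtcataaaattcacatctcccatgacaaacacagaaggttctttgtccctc
Intron of Meis2, chr2:116035667-116035966: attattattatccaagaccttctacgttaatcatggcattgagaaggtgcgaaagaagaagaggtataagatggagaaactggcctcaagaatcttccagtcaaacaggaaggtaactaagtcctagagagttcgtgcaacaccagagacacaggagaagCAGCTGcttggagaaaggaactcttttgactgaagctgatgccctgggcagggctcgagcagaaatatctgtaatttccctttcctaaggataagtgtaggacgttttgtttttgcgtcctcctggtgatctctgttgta

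The Bcan window holds 1 NKX2 word and 1 E-box, and the Lhx8 window holds 1 NKX2 word, 1 E-box and 1 MEIS word. The Intu window, lower in MGE, holds 2 MEIS words and 1 homeodomain word. The Elp4 window holds 1 MEIS and 1 SOX word, and the Meis2 window 1 E-box. None of the 6 words was in the windows downstream of Nkx2-1, in Ebf1 or near Zfp36l1, which says only that these letters are not in those 300 bases.

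Libraries of the 6 eminence samples held 3465 to 6845 nuclei, 77387940 to 138789944 peak counts and a median of 14584 to 17256 counts per nucleus. Peaks had been called separately in each sample, numbered 103633 to 182638 and covered 87.2 to 156 Mb, with the least in LGE replicate 1. A wider peak collects more counts, so the covered length, or a fit with that length as an offset, is given beside the main ratios. Because peaks were called per sample, that length can itself rise with accessibility. The offset can then take out part of a real difference, so a call lost with it does not show equal accessibility. How far either applies at a locus was not tested. Replicates correlated across the tested regions with Pearson r of 0.954 in MGE, 0.966 in LGE and 0.970 in CGE on log2 CPM (counts scaled to library size), a description across regions that are not independent. Pairs of these 6 libraries shared 15 to 56 cell barcodes, at most 1.17% of the smaller library.

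In summed CPM the markers followed the labels. Nkx2-1 had 540 and 363 CPM in the MGE samples, 36.4 and 33.7 in LGE, and 38.5 and 32.4 in CGE. Lhx6 had 273 and 241 CPM in MGE against 41.8 and 54.3 in LGE, and 53.6 and 56.4 in CGE. Meis2 ran the other way, with 308 and 319 CPM in MGE, 559 and 651 in LGE, and 479 and 491 in CGE. For none of these 3 genes did the MGE and LGE samples overlap, as they did not at 39.7% of all tested genes. Peaks over Meis2 covered 40.8 kb in MGE and 80.7 kb in LGE, at 7.78 and 7.80 CPM per covered kilobase, and with that length as an offset the Meis2 log2 fold turned from -0.95 to 0.19.

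The same genes were read per nucleus after thinning every nucleus to 5000 peak counts, which left out 760 and 151 MGE, 703 and 153 LGE, and 306 and 102 CGE nuclei below that depth. A count at Nkx2-1 was then expected in 77.7% and 63.2% of MGE nuclei, 11.4% and 10.8% of LGE nuclei, and 11.7% and 10.7% of CGE nuclei. Shares before thinning were taken over all nuclei, those below that depth included. For Nkx2-1 they were 83.0% and 77.0% in MGE and 20.9% and 19.7% in LGE. For Lhx6 the thinned shares were 53.1% and 53.4% in MGE against 13.5% and 17.2% in LGE, and before thinning 65.8% and 71.6% against 25.2% and 30.2%. For Shh, the secreted hedgehog ligand, they were 28.8% and 31.4% in MGE against 8.85% and 11.1% in LGE, and before thinning 44.0% and 52.5% against 17.5% and 19.9%. Meis2 had a count in 61.2% and 59.3% of thinned MGE nuclei and in 80.4% and 86.7% of LGE nuclei, and before thinning in 73.7% and 75.5% against 86.4% and 93.3%. Dlx1, a homeobox gene shared by all eminences, lay at 77.4% and 73.2% in MGE and 63.5% and 68.9% in LGE, and before thinning at 83.8% and 85.0% against 74.3% and 81.7%. These shares are given as a description, and no test was run on them. Thinning evened the depth but not the covered length. Peaks at Nkx2-1 covered 22.9 kb in MGE and 5.88 kb in LGE, at Lhx6 30.5 and 7.54 kb, and at Shh 10.0 and 5.75 kb. In summed counts, fewer nuclei with an open locus and less accessibility per nucleus cannot be told apart.

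**Figure D1:**
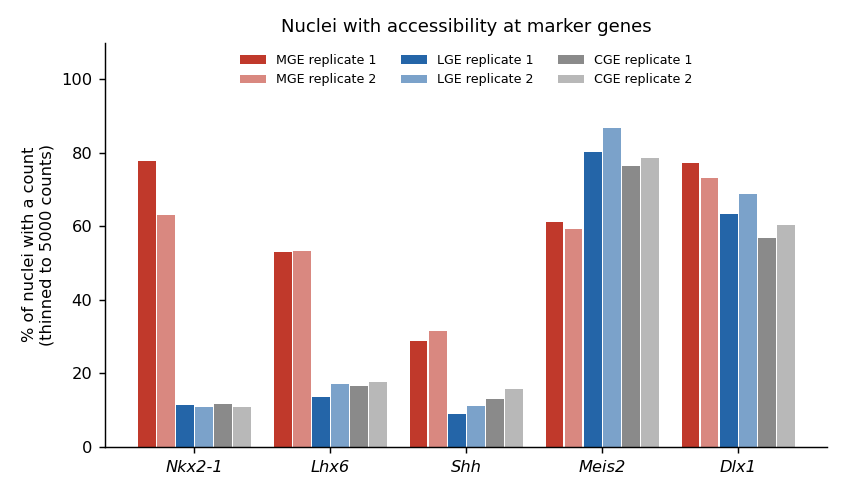
Share of nuclei with at least 1 count at 5 marker genes, in percent on the vertical axis, after thinning each nucleus to 5000 counts, with a bar per sample. The covered length was not evened. At Nkx2-1 the MGE bars stand at 77.7% and 63.2% and the LGE and CGE bars between 10.7% and 11.7%, while the Meis2 bars are higher in LGE (80.4% and 86.7%) than in MGE (61.2% and 59.3%).

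Peaks of the 6 samples were merged, and the 77217 merged regions with a peak in every sample were tested. Between MGE and LGE edgeR's quasi-likelihood test called 8551 of them (p adjusted by Benjamini-Hochberg, threshold 0.05), which is 11.1% of those tested. Of these 3910 were higher in MGE (5.06% of all tested) and 4641 lower (6.01%). Among the called regions 3376 were over 2-fold higher in MGE and 4001 over 2-fold lower, and 1007 and 1104 passed 4-fold. The MGE and LGE samples did not overlap in any called region, as they did not in 52.6% of all tested regions. The unadjusted p was under 0.05 for 19190 regions. DESeq2 called 13428 regions, leaving out LGE replicate 1 left 3712 and leaving out MGE replicate 1 left 5362. With the CTX samples in the same fit 47 were called, 1 of them higher in MGE.

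**Figure D2:**
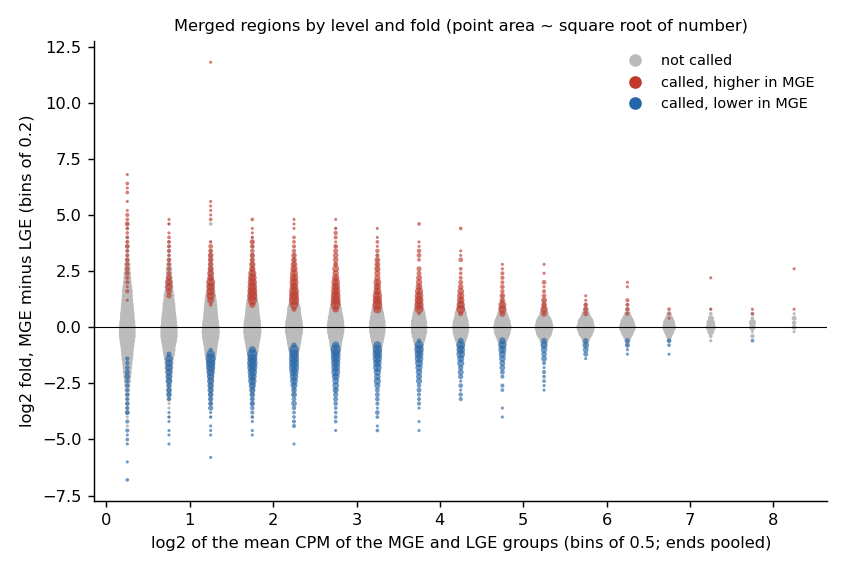
Log2 fold of MGE over LGE (vertical axis, bins of 0.2) against the log2 mean CPM of both groups (horizontal axis, bins of 0.5) for the 77217 tested regions, with the point area growing with the square root of the number of regions. The 3910 regions called higher in MGE and the 4641 called lower lie on both sides of 0, and the called points begin at larger folds in the lower bins of level.

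Called regions lay mostly away from gene starts. Regions within 1000 bp of a start site made up 20.1% of those tested but 3.96% of the regions higher in MGE and 2.43% of those lower. Of 15525 such promoter regions 1.73% were called, against 14.2% of 25221 intronic, 13.5% of 29851 intergenic and 10.2% of 6620 exonic regions. Intronic regions were 41.5% of those higher in MGE, 42.2% of those lower and 32.7% of all. Intergenic regions were 45.1%, 48.7% and 38.7% in that order. Away from promoters the median distance to the nearest start site was 45772 bp for regions higher in MGE, 67174 bp for those lower and 37139 bp for all tested. The median GC content was 47.4%, 45.01% and 48.5%, and the median width was 1490, 1347 and 1263 bp. On log2 CPM the CGE mean lay nearer to LGE than to MGE in 69.6% of the regions higher in MGE and in 84.5% of those lower, against 63.8% of all tested. Among the regions called with the covered-length offset these shares were 75.5% for the higher and 81.7% for the lower ones.

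At the Nkx2-1 locus 5 of 12 tested regions within 100 kb of a start site or in the gene body were called, all 5 higher in MGE. The region over the gene itself, chr12:56517497-56541787, had 534 and 354 CPM in MGE, 67.8 and 79.3 in LGE, and 76.2 and 72.4 in CGE. Its log2 fold was 2.59 (SE 0.21, edgeR adjusted p 0.00196), and the peaks there covered 23.6 kb in MGE and 14.52 kb in LGE. The intergenic region chr12:56439432-56442590, 92516 bp from the start site, had the largest fold in the direction of MGE among called regions with 200 bp or more of peak in each MGE and LGE sample. It held 35.8 and 27.7 CPM in MGE, 1.15 and 1.73 in LGE, and 3.72 and 1.18 in CGE, 22.2-fold higher in MGE (log2 fold 4.48, SE 0.53, edgeR adjusted p 0.00372). The covered-length offset left log2 folds of 2.03 over the gene and 2.37 at the intergenic region, both called. The other 3 called regions, all downstream of the gene, had log2 folds of 1.23, 2.48 and 2.84. With the offset these were 0.29 (adjusted p 0.544, no longer called), 1.39 and 1.08.

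The Lhx6 locus had 7 of 11 regions called, and all 7 were higher in MGE. The region over Lhx6 and its neighbour Morn5, chr2:36076465-36106951, had 269 and 228 CPM in MGE, 45.9 and 61.0 in LGE, and 58.9 and 66.0 in CGE, and the log2 fold came to 2.22 (SE 0.18, edgeR adjusted p 0.00196). Peaks covered 30.5 kb of it in MGE and 8.38 kb in LGE, so that the level per covered kilobase was 8.16 against 6.46 CPM, and with the covered-length offset the log2 fold was 0.51 (adjusted p 0.214). The other 6 called regions had log2 folds of 0.83 to 2.41, and with the offset 5 of the 7 calls were kept. The largest of them, the intronic region chr2:36171442-36172966 upstream of Lhx6, had 15.5 and 14.54 CPM in MGE against 3.41 and 2.24 in LGE.

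At Lhx8, a LIM homeodomain gene of cholinergic neurons, 4 of 8 regions were called, each higher in MGE. The intergenic region chr3:154380402-154383279 had 22.2 and 25.3 CPM in MGE, 5.31 and 7.26 in LGE, and 10.0 and 10.0 in CGE (log2 fold 1.92, SE 0.22, edgeR adjusted p 0.0033). Peaks covered 2.63 kb in MGE and 1.33 kb in LGE, and the offset left 0.90 (adjusted p 0.020). It was the only one of the 4 Lhx8 calls kept with the offset, which left 0.42 (adjusted p 0.330) over the gene and 0.13 and 0.42 at the other two. At Shh 2 of 5 regions were called, both higher in MGE. The region over the gene, chr5:28457665-28467800, had 105 and 102 CPM in MGE, 25.1 and 32.1 in LGE, and 35.3 and 46.9 in CGE, a log2 fold of 1.86 and 1.23 with the offset. The LGE samples were below both MGE samples at each region given here for Lhx8 and Shh, as at every region called higher in MGE. Of all tested regions 52.6% had no overlap in either direction.

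The Meis2 locus ran in the opposite direction, with 7 of 18 regions called and all 7 lower in MGE. The smallest p was at an intronic region, chr2:116034122-116037803, with 3.11 and 2.67 CPM in MGE, 23.7 and 24.9 in LGE, and 13.4 and 11.7 in CGE. Its log2 fold was -3.07 (SE 0.20, edgeR adjusted p 0.00139), and with the covered-length offset -1.51 (adjusted p 0.0013), with 1.36 kb covered in MGE and 3.45 kb in LGE. A further intronic region, chr2:115922670-115924485, had 1.78 and 2.58 CPM in MGE against 15.2 and 13.6 in LGE, and 14.2 and 12.98 in CGE. At this one the CGE samples lay with LGE, while at the first they lay between the other groups. The offset brought 1 of the 7 log2 folds from -1.58 to 0.05 and the others to between -1.51 and -0.29, and 3 of the 7 calls were kept.

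**Figure D3:**
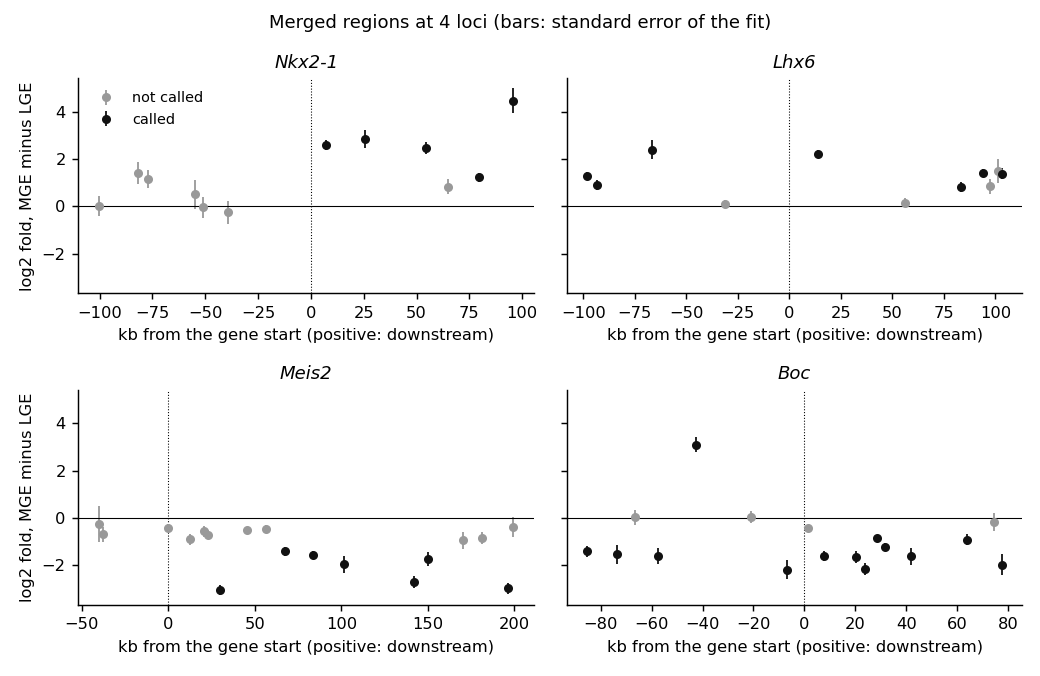
Log2 fold of MGE over LGE, with its standard error, for every tested region at Nkx2-1, Lhx6, Meis2 and Boc, against the distance in kb from the gene start (positive values lie downstream). Called regions are black: 5 at Nkx2-1 and 7 at Lhx6 lie above 0, 7 at Meis2 lie below 0, and at Boc 12 lie below 0 and 1 above it.

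Other genes of LGE and striatal lineages held called regions in both directions. Near Zfp503, a zinc finger gene of striatal neurons, 6 of 13 regions were called, all lower in MGE, and 2 of the 6 calls were kept with the offset. The lowest of these by log2 fold, chr14:22004225-22005695, had 3.47 and 3.57 CPM in MGE against 17.0 and 16.4 in LGE, and 15.1 and 17.0 in CGE (log2 fold -2.25, with the offset -1.58). Rarb, a retinoic acid receptor, had 3 of 15 called, all lower, 2 of them kept with the offset. Foxp1, a forkhead gene of striatal projection neurons, had 4 of 38 called, all lower (10.5%). Zfhx3 had 10 lower and 1 higher of 75 (14.7% in all), and Ebf1, which acts in the differentiation of striatal neurons, 3 lower and 1 higher of 33 (12.1% in all). The offset kept 3 of the 4 calls at Foxp1, and 5 lower and 0 higher calls at Zfhx3. At Ebf1 it kept 1 lower call and the higher one. Over all tested regions 5.06% were higher, 6.01% were lower and 11.1% were called in either direction. Other genes of the list ran either way. Pbx3 had 3 higher and 0 lower of 23, all 3 kept with the offset, and Rgs9 2 higher and 1 lower of 18. Six3, Ppp1r1b and Tac1 had 1 higher and 0 lower each, of 12, 25 and 3 regions, and Shisa2 0 higher and 5 lower of 10. The offset kept 1 higher and 0 lower calls at Rgs9, 0 at Six3, 1 each at Ppp1r1b and Tac1, and 2 at Shisa2. The smallest p at Ebf1 was at the higher one, an intronic region at chr11:44684219-44686521 with 11.7 and 20.4 CPM in MGE, 0.631 and 1.53 in LGE, and 2.28 and 1.95 in CGE (log2 fold 3.92, SE 0.47, edgeR adjusted p 0.00375, with the offset 2.06).

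Around Pax6, a homeodomain gene of dorsal and lateral progenitors, 4 of 10 regions were lower in MGE and 1 was higher, and the offset kept none of the 4 lower calls. The higher one, in an intron of the neighbouring Elp4 at chr2:105726454-105727356, had 8.71 and 15.5 CPM in MGE, 1.21 and 1.45 in LGE, and 0.987 and 2.16 in CGE (log2 fold 3.19, SE 0.45, edgeR adjusted p 0.00587, with the offset 2.29). At Isl1, a LIM homeodomain gene, 0 of 3 regions were called, and the one with the smallest p had 126 and 122 CPM in MGE and 91.9 and 115 in LGE (edgeR adjusted p 0.419). At Gsx2, a progenitor homeobox gene, 0 of 13 were called, and the smallest p lay at the Pdgfra promoter with 2.58 and 2.83 CPM in MGE against 0.853 and 1.18 in LGE (edgeR adjusted p 0.0627, and 0.0126 by DESeq2). Of the 259 tested regions whose nearest start site within 100 kb belonged to the 29 LGE and striatal genes, 12 were called higher in MGE and 34 lower, 17.8% in all, with a median log2 fold of -0.12. For the 19 MGE identity genes it was 24 higher and 8 lower of 161 regions, 19.9%, with a median of 0.16. Over all tested regions 11.1% were called, 5.06% higher and 6.01% lower, and the median was -0.02. With the offset 7 higher and 13 lower calls were kept near the LGE and striatal genes, and 14 and 6 near the MGE identity genes. A high share was not particular to these 2 lists. The CGE identity genes had 9 higher and 3 lower of 47 regions, 25.5%, with a median of 0.40. Microglial genes had 2 and 2 of 21, 19.0%, pan-eminence GABAergic genes 13 and 2 of 90, 16.7%, and progenitor genes 6 and 3 of 133, 6.77%. The offset kept 3 higher and 2 lower calls near the CGE identity genes and 1 and 2 near the microglial genes. Near the pan-eminence GABAergic genes it kept 4 and 2, and near the progenitor genes 2 and 3.

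Hedgehog signals through receptors, co-receptors and the Gli factors. Of the 96 regions nearest to the 14 pathway genes 7 were higher in MGE and 28 lower, 36.5% in all against 11.1% of all tested, with a median log2 fold of -0.45. With the covered-length offset all 7 higher calls were kept and 7 of the 28 lower ones. At Boc, a membrane co-receptor for hedgehog, 12 of 17 regions at the locus were lower in MGE and 1 higher, and the offset kept 4 of the 12 lower calls and the higher one. The intronic region chr16:44529026-44532023 had 62.0 and 67.8 CPM in MGE, 113 and 123 in LGE, and 93.4 and 89.7 in CGE (log2 fold -0.87, with the offset -0.58 and no longer called, adjusted p 0.155). The intronic region chr16:44532533-44537386 had 2.84 and 2.85 CPM in MGE, 12.52 and 13.1 in LGE, and 11.8 and 7.69 in CGE, with peaks over 1.15 kb in MGE and 3.59 kb in LGE. Its log2 fold of -2.17 became -0.47 with the offset (adjusted p 0.315). The single region higher in MGE, chr16:44600469-44602827, lay upstream of the gene with 26.4 and 33.8 CPM in MGE, 2.51 and 4.57 in LGE, and 2.12 and 2.53 in CGE (log2 fold 3.10, edgeR adjusted p 0.00269, with the offset 2.18). On the log2 scale the CGE mean was nearer to LGE than to MGE at each of these 3 Boc regions.

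Gli2 and Gli3 encode zinc finger factors that carry the hedgehog signal to target genes, Gli3 mainly as a repressor. At Gli2 9 of 20 regions were lower in MGE and 1 higher, and with the offset 1 of the 9 lower calls and the higher one (log2 fold 0.81) were kept. The intronic region chr1:118909012-118914710 had 38.7 and 43.1 CPM in MGE, 86.6 and 96.2 in LGE, and 75.4 and 69.5 in CGE, a log2 fold of -1.16 and of -0.47 with the offset (adjusted p 0.242). At Gli3 7 of 18 were lower and 0 higher. The region over its start site, chr13:15461706-15470501, had 71.0 and 73.2 CPM in MGE against 109 and 118 in LGE (log2 fold -0.65, edgeR adjusted p 0.020), and with the covered-length offset 0.00. Of the 7 Gli3 regions the offset left a log2 fold above 0 at 2 and between -0.54 and -0.18 at 5, with 0 calls kept. Gas1, a further hedgehog co-receptor, had 4 of 8 lower, with log2 folds of -1.30 to -0.89 and of -0.90 to -0.62 with the offset, where 3 calls were kept. Ptch1, the hedgehog receptor and a target of the pathway, had 2 regions higher and 1 lower of 13. At Gli1, a pathway target, 2 of 15 were lower, and the one with the smallest p, at the Inhbc promoter, had 2.63 and 3.39 CPM in MGE against 6.33 and 6.57 in LGE (log2 fold -1.10, SE 0.25, edgeR adjusted p 0.032, with the offset -0.92). Of the 6 fits that each left out 1 sample, that call held only in the one without MGE replicate 2 (adjusted p 0.0295). The adjusted p was 0.107 without MGE replicate 1, 0.148 and 0.119 without either LGE sample, and 0.0618 and 0.0554 without either CGE sample.

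Among called regions with 200 bp or more of peak in each MGE and LGE sample, the 6 largest folds in each direction were at intergenic or intronic regions. Higher in MGE, next to the region downstream of Nkx2-1, was chr3:88001980-88003168, 1750 bp from the start of Bcan, a brain proteoglycan gene. It had 12.3 and 11.6 CPM in MGE, 0.607 and 0.743 in LGE, and 1.48 and 2.24 in CGE, 17.8-fold higher in MGE (log2 fold 4.15, SE 0.31, edgeR adjusted p 0.00186). The remaining 4 were an intronic region of Sdk1 (log2 fold 4.00), an intergenic one on chromosome 11 (3.94), one on chromosome 9 (3.81) and an intronic one of Gucy2f (3.78). Lower in MGE, an intronic region of Intu at chr3:40666417-40667853 had 0.761 and 0.930 CPM in MGE, 22.1 and 21.5 in LGE, and 12.3 and 7.81 in CGE, 25.96-fold lower in MGE (log2 fold -4.70, SE 0.30, edgeR adjusted p 0.00137). The intergenic region chr12:80070474-80071525, 41469 bp from the start of Zfp36l1, had 0.784 and 0.861 CPM in MGE against 18.8 and 19.2 in LGE, and 9.25 and 7.37 in CGE. At both the CGE samples lay between the other groups. The intergenic region chr5:85238786-85240960, 821427 bp from the nearest start site, had the highest level of the 6, with 3.87 and 3.42 CPM in MGE against 62.1 and 57.5 in LGE. The last 3 were in an intron of Glrx2 (log2 fold -4.14), intergenic on chromosome 4 (-4.09) and in an intron of Tcf7l1 (-3.99). With the covered-length offset these 12 log2 folds shrank to between 1.38 and 2.46 higher in MGE and between -2.59 and -1.79, and all 12 stayed called.

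Called regions were also counted by the nearest start site within 100 kb. Genes with many tested regions can rank high in such a count, and the shares over all tested regions were 5.06% higher and 6.01% lower. Higher in MGE, Anks1 had 7 of 15 regions and Rbfox3, a neuronal splicing factor, 7 of 46. Tox2, Lmo1, Lingo1 and Agap1 followed with 6 each, of 24, 16, 35 and 48. Mical2 had 5 of 13 and Nkx2-1 5 of 6. Lower in MGE, Rbfox1, a further splicing factor, had 12 of 40, Tenm4, an adhesion gene, 11 of 45 and Boc 11 of 16. Dab1, the adaptor of reelin signalling, had 10 of 29, Frmd4a 8 of 43, Zfhx3 7 of 30, Sh3rf1 6 of 17 and Pde4d 6 of 45. Calls in the other direction numbered 2 at Rbfox1 and at Lingo1, 3 at Dab1, and 1 each at Boc, Frmd4a, Anks1, Rbfox3 and Agap1. Genes level in number were ordered by their smallest p, so that Nckap5, with 6 of 37 lower and 2 higher, came next after Pde4d. As shares of a gene's tested regions these were lowest at Agap1 (6 of 48) and reached 83.3% at Nkx2-1 among the 8 genes for the higher regions, and ran from 13.3% at Pde4d to 68.8% at Boc for the lower ones. With the offset 4 of the 5 calls at Nkx2-1 were kept, 11 of the 12 at Rbfox1, 3 of the 11 at Boc and 1 of the 6 at Agap1. The median log2 fold over all tested regions of a gene was 2.54 at Nkx2-1, 0.97 at Anks1, -1.40 at Boc and -0.26 at Pde4d.

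Counts summed over a gene body and the 2000 bp upstream gave few calls. Of 17145 protein-coding genes 20 were called by edgeR (0.117%), 15 higher in MGE (0.0875%) and 5 lower (0.0292%). An unadjusted p below 0.05 was seen at 1567. The count depended on the fit: DESeq2 called 600 genes, counting start-site peaks alone (within 1000 bp) gave 10, and the covered-length offset gave 3. The replicate number as a block also gave 3, and 10 of the called genes named below lost their call with it. It was 7 without MGE replicate 1 and 130 without MGE replicate 2.

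Nkx2-1 was 12.9-fold higher in MGE (log2 fold 3.69, SE 0.23, edgeR adjusted p 0.00405). Its peaks covered 22.9 kb in MGE and 5.88 kb in LGE, at 19.6 against 5.999 CPM per covered kilobase, and with the offset the log2 fold was 1.89 (adjusted p 0.00279). Lhx6 was 5.35-fold higher (log2 fold 2.42, SE 0.17, edgeR adjusted p 0.00732), with 30.5 kb covered in MGE and 7.54 kb in LGE at 8.43 against 6.49 CPM per kilobase. With the offset the Lhx6 log2 fold was 0.57 (adjusted p 0.644), and from peaks at its start sites alone 3.04 (adjusted p 0.00255). Without MGE replicate 1 the adjusted p for Lhx6 was 0.0581. Shh had 107 and 108 CPM in MGE, 27.4 and 32.9 in LGE, and 40.6 and 48.4 in CGE, 3.57-fold higher in MGE (log2 fold 1.84, SE 0.16, edgeR adjusted p 0.0172). Its adjusted p was 0.0927 without MGE replicate 1, 0.059 without LGE replicate 1 and 0.0993 with the offset, where the log2 fold was 1.22.

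Meis2 missed the threshold, at a log2 fold of -0.95 (SE of 0.12, edgeR adjusted p 0.0589), although DESeq2 called it. The offset value of 0.19 had an adjusted p of 0.987. Boc, with 140 and 143 CPM in MGE against 299 and 293 in LGE, had -1.07 as log2 fold (SE 0.13, adjusted p 0.0674). Gli2 stood at 247 and 260 CPM against 462 and 439 (adjusted p 0.128), Gli3 at 255 and 338 against 500 and 497 (0.235) and Gas1 at 87.3 and 103 against 159 and 168 (0.126). The MGE samples lay below the LGE samples at each of these 4 genes, beside 39.7% of all tested genes without an overlap in either direction, and the edgeR test called none of them. With the offset the log2 folds were 0.13 at Boc, -0.05 at Gli2, 0.12 at Gli3 and 0.33 at Gas1.

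**Figure D4:**
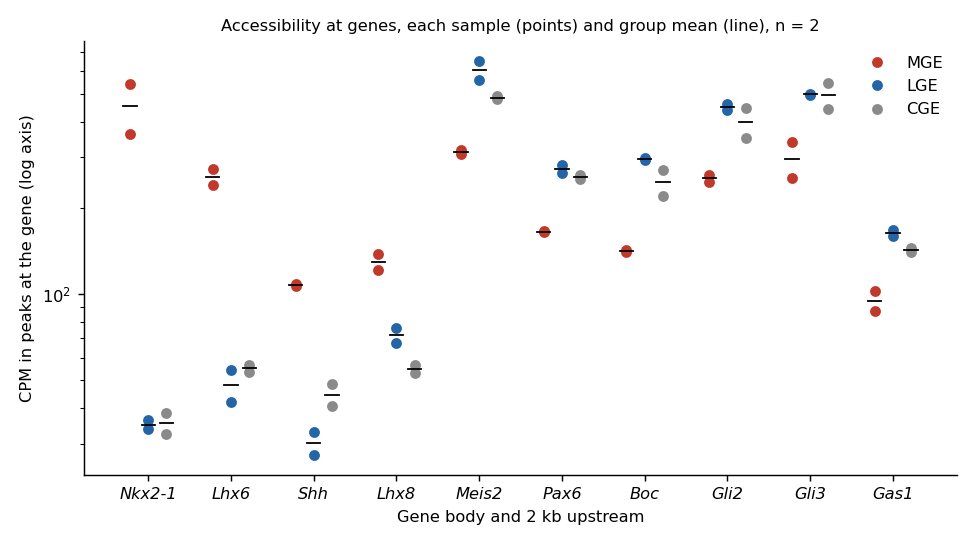
CPM in peaks over the gene body and 2 kb upstream (vertical log axis) for 10 genes, with a point for each sample and a line at the group mean (n = 2). The MGE points lie above all LGE points at Nkx2-1, Lhx6, Shh and Lhx8 and below them at the other 6, Meis2 (308 and 319 against 559 and 651) among them; 39.7% of all tested genes had no overlap between these groups.

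Of the other called genes Stap2, a signalling adaptor, had 121 and 103 CPM in MGE, 3.38 and 4.60 in LGE, and 112 and 102 in CGE, 28.1-fold higher in MGE (log2 fold 4.81, SE 0.21, edgeR adjusted p 0.00195). The offset left 2.69 for Stap2 (adjusted p 0.000618), while peaks at its start sites gave 0.33 (adjusted p 0.912), and it shares peaks with Mpnd. Morn5, with a log2 fold of 2.96, shares peaks with Lhx6, and the offset turned it to -0.72. Ccdc188 (3.23), Fgr (2.75), Rasgrp2 (1.88), Plppr3 (1.81) and Gmppa (1.80) were each called higher, and none of these 5 with the offset. From peaks at start sites the log2 folds were 3.88, 2.94, 0.23, 0.31 and -0.38 in that order, and none was called. Ccdc188 shares peaks with Zdhhc8, Rasgrp2 with Nrxn2 and Pygm, Plppr3 with Prtn3 and Ptbp1, and Gmppa with Asic4. Each of the 5 calls was lost in 1 or 2 of the 6 fits that left out a sample. Of the lower genes Cdh17, a cadherin, had 6.72 and 8.08 CPM in MGE, 55.7 and 48.5 in LGE, and 50.8 and 43.1 in CGE (log2 fold -2.82, SE 0.17, edgeR adjusted p 0.00405, with the offset -1.42). Without MGE replicate 1 its adjusted p was 0.0509. Cpb2 (-1.90) and Adtrp (-1.31) were the other 2 with a peak in each of the 4 samples, and both calls were lost without MGE replicate 1, LGE replicate 1 or LGE replicate 2. Both were also lost with the offset, at -1.37 for Cpb2 (adjusted p 0.0564) and -0.73 for Adtrp (adjusted p 0.429). Outside the naming rule, and named after their values were seen, Omp stood at 0 and 0.0441 CPM in MGE against 34.0 and 26.4 in LGE, and Sohlh1 at 0 and 0 against 9.58 and 5.90. Klk9 ran the other way, with 6.07 and 4.42 CPM in MGE and 0 and 0 in LGE. These 3 had no peak in at least 1 of the 4 samples. Omp shares peaks with Capn5 and Klk9 with Klk8, and peaks counted for Omp covered 0.047 kb in MGE and 3.94 kb in LGE. Such a sum can also move with where a neighbour's peak ends, which was not tested.

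By list, 2 of the 19 MGE identity genes tested were called higher (Nkx2-1 and Lhx6) and 0 lower, with a median log2 fold of 0.30, against 0.00 over all genes. Lhx8 had 121 and 138 CPM in MGE against 67.4 and 76.4 in LGE (adjusted p 0.119). Of 29 LGE and striatal genes 0 were called and 7 had an unadjusted p under 0.05, with a median of -0.09. Pax6 had 166 and 165 CPM in MGE against 264 and 282 in LGE (adjusted p 0.106). Gsx2 had 115 and 105 CPM in MGE but 40.3 and 141 in the LGE samples, so that the LGE samples lay on both sides of MGE. Of 14 hedgehog genes 1 was called higher (Shh) and 0 lower, while 6 reached an unadjusted p below 0.05. Of 12 retinoic acid genes 0 were called, with a median of 0.08. Over all 17145 tested genes 0.117% were called and 1567 had an unadjusted p under 0.05.

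The 13 pan-eminence GABAergic genes had 0 calls and 12 log2 folds above 0, with a median of 0.41, and their summed CPM was 3604 and 3223 in MGE against 1932 and 2767 in LGE. A gene sum takes the whole peaks that touch the gene, so it also moves with where a sample's peaks were divided. Dlx5, a homeobox gene of GABAergic neurons, had 454 and 425 CPM in MGE, 64.97 and 332 in LGE, and 305 and 315 in CGE. The merged region over Dlx5, chr6:6849516-6883109, had 449 and 401 CPM in MGE against 287 and 324 in LGE (log2 fold 0.48, not called), so that the low gene sum of LGE replicate 1 did not hold for the region. Peaks covered 31.7 kb of that region in LGE, and those counted for the gene 19.3 kb. The 3 intergenic regions at Dlx5 that were called higher in MGE had log2 folds of 1.61 to 1.82, and 0.02 to 0.18 with the offset. The CGE identity list had 0 of 8 called and 7 log2 folds above 0. Nr2f2, a nuclear receptor of CGE lineages, had 246 and 223 CPM in MGE, 82.2 and 129 in LGE, and 256 and 496 in CGE, and Nr2f1 had 308 and 288, 179 and 161, and 445 and 681. With the offset the log2 folds were 0.09 at Nr2f2 and -0.18 at Nr2f1.

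Markers of neighbouring tissues and of other cells were read in the same way. The 10 hypothalamic and preoptic genes had 0 calls and 10 log2 folds above 0, with a median of 0.61 and a summed CPM of 859 and 675 in MGE against 413 and 569 in LGE. Otp, a hypothalamic homeobox gene, had 122 and 96.2 CPM in MGE and 36.1 and 65.1 in LGE (log2 fold 1.11, with the offset 0.25). The 13 pallial glutamatergic genes had 0 calls and a summed CPM of 671 and 624 in MGE against 751 and 824 in LGE. Among them Emx2 had 78.2 and 83.0 CPM in MGE against 158 and 182 in LGE (log2 fold -1.08, adjusted p 0.0979, with the offset -0.34). Endothelial genes summed to 197 and 190 CPM in MGE and 175 and 149 in LGE, mural and mesenchymal genes to 262 and 221 and to 213 and 199, and the 6 tested of 8 microglial genes to 172 and 171 and to 223 and 208, with 0 calls in each list. Of 7 erythroid genes 3 were tested, with 0 calls and sums of 60.8 and 46.2 CPM in MGE and 53.7 and 55.4 in LGE. Progenitor genes summed to 3038 and 2407 in MGE against 2076 and 2598 in LGE, and neuronal genes to 1887 and 1919 against 1814 and 1665. The part of other cells in the region calls was not tested.

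The sequence of the called regions had not been used to call them, but the motif words were picked with values in view. The word shares are therefore a description and not an independent check. Motif words were counted in the 300 bases at the centre of each region, for the regions outside promoters: 3755 higher in MGE, 4528 lower and 61692 of all tested. The NKX2 word was in 26.1% of regions higher in MGE, 17.2% of those lower and 17.1% of all. The E-box was in 36.6%, 21.3% and 26.1% in that order. The MEIS word ran the other way, in 24.8% of regions higher in MGE, 35.6% of those lower and 26.5% of all. The homeodomain word was in 17.5% and 21.2% against 13.1% of all, above the share of all regions in both directions. SOX words were in 19.4%, 22.7% and 18.1%, and RFX words in 14.7%, 11.8% and 12.4%. The windows had a median GC content of 49%, 46.3% and 49%. Among the regions called with the covered-length offset the NKX2 word was in 29.1% higher and 17.4% lower, the E-box in 36.1% and 21.5%, and the MEIS word in 25.3% and 37.2%. A word is a match of letters and does not show that a factor binds.

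**Figure D5:**
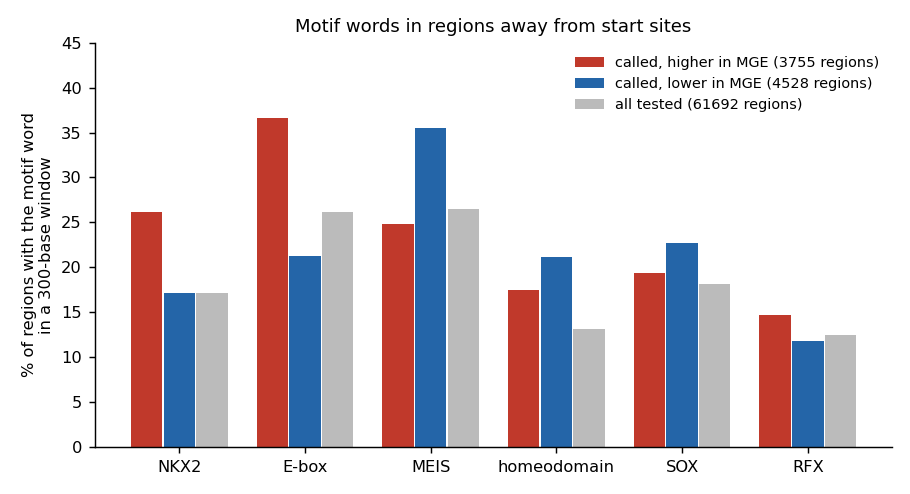
Share of regions away from start sites with each of 6 motif words in a 300-base window, in percent, for regions called higher in MGE, called lower in MGE and all tested. The bars for NKX2 (26.1%) and E-box (36.6%) are highest among regions higher in MGE, and the bar for MEIS (35.6%) among regions lower in MGE.

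Counts per transcription factor motif, summed over all peaks of a sample, gave no calls. Of 579 motifs edgeR called 0 (0.0%), with a smallest adjusted p of 0.683 and 25 with an unadjusted p under 0.05, limma called 0 and DESeq2 5. The 5 were HLTF, ZBTB18, NFIC::TLX1 and SMAD3, higher in MGE, and PHOX2A, lower. ZBTB18, a zinc finger repressor, had 257 and 240 CPM in MGE against 188 and 190 in LGE (log2 fold 0.40, SE 0.09, edgeR adjusted p 0.683, DESeq2 4.84e-05). HLTF had 1196 and 1207 CPM against 959 and 984 (log2 fold 0.31). The 8 motifs with the smallest p included TEAD1 (0.34) on the side of MGE, and USF1 (-0.38), EOMES (-0.54) and Pax6 (-0.85) on the side of LGE.

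The motif families of the marker genes had 0 calls. The 10 motifs of NKX and related BAR factors had a median log2 fold of 0.04. NKX2-8 had 1742 and 1616 CPM in MGE against 1390 and 1426 in LGE (log2 fold 0.25), and NKX2-3 had 765 and 737 against 644 and 655 (0.21). Nkx2-5 had 12482 and 12615 CPM in MGE against 13040 and 12853 in LGE (-0.05). A second Nkx2-5 motif (var.2) had 137 and 197 CPM in MGE against 105 and 132 in LGE (0.49). The 9 LIM homeodomain motifs had a median of -0.07, and LHX6 had 486 and 277 CPM in MGE against 472 and 497 in LGE (-0.34). The 10 TALE motifs had a median of -0.17, and MEIS1 had 18642 and 17774 CPM in MGE against 22942 and 18782 in LGE. MEIS2 had 3069 and 2822 CPM in MGE against 2968 and 2962 in LGE (-0.01), and MEIS3 had 2777 and 6727 against 2647 and 2649 (0.84), with MGE replicate 2 high alone of these 4 samples and CGE replicate 2 at 6751. PKNOX1, with 51.8 and 42.6 against 80.9 and 77.5 (-0.75), was the one TALE motif with an unadjusted p under 0.05. GLI2 had 124 and 177 CPM against 95.4 and 110 (0.55), and the 7 GLI and ZIC motifs were all above 0. Of these 7 only GLI2 had no overlap between the MGE and LGE samples, beside 40.4% of all tested motifs. Scaled to total peak counts instead, the median over the 579 motifs moved from 0.01 to 0.21, the NKX median to 0.22 and the TALE median to 0.02.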

How the data were processed

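Single-nucleus ATAC-seq of the 6 eminence samples was analysed from files the authors had processed with Cell Ranger ATAC 1.2.0 on GRCm38 (mm10), per the submitters' processing notes. The deposited counts are raw numbers of transposase cuts per peak and nuclear barcode and per motif and barcode, with peaks called separately per sample. The barcode filter was not given in the sources used here, all barcodes were kept and doublets were not removed.

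Overlapping peaks of the 6 samples were merged (223135 regions). Counts were summed over nuclei per sample for 77217 regions with a peak in all 6 samples, 21938 protein-coding genes and 579 motifs. Genes were those of GENCODE M21 with the body and 2000 bp upstream, and a peak was counted for each gene it overlaps. The sums were fitted with edgeR 4.0.16 in R 4.3.3 (glmQLFit, TMM, filterByExpr), and the filter on low counts left 17145 genes. Groups were MGE, LGE and CGE. CPM are relative to the counts of the tested family. Each standard error (SE) was taken from the test, as the absolute log2 fold divided by the square root of its F statistic. The covered length of a gene is that of the whole peaks counted. Each fit was tested on simulated data: of 100 regions changed by a log2 fold of 1 it recovered 14% and of 100 changed by 2 it recovered 81%. For genes these shares were 62% and 90%.

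Named were Nkx2-1, Lhx6 and Meis2, called members of 4 lists, the 10 largest called gene folds and 6 largest region folds in each direction, the region with the smallest p at 9 genes, the 8 genes per direction nearest to the most called regions and the 8 motifs with the smallest p. Loci of other list genes, the list members given as examples and the motif words were picked with values in view. The comparison and all lists were chosen with earlier results of these data known. Alternatives are DESeq2 1.42.0, limma 3.58.1 (motifs), other scalings, filters, sample sets, offsets and counting rules. Coordinates are 1-based.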

Additional observations from a re-analysis of the deposited data

How the results depend on the processing

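Regions called numbered 8551 in the reported fit and 8407 to 8914 with RLE scaling, separate scaling of promoter regions, no filter on low counts or the replicate number as a block. DESeq2 called 13428 and a fit with the 2 CTX samples 47. Leaving out 1 sample gave 3712 to 10932 regions, with 3712 without LGE replicate 1 and 5362 without MGE replicate 1. The covered-length offset gave 6989 (5365 of the 8551 among them), the fit of the 4 MGE and LGE samples 6679, nuclei with any count 9995, the GC offset 10564 and regions with a peak in any MGE or LGE sample 7634 of 149239. For genes the 20 calls became 600 with DESeq2, 3 with the covered-length offset, 10 from peaks at start sites and 7 to 130 when 1 sample was left out. For motifs the 0 calls became 5 with DESeq2 and stayed 0 in every other setting tried, leaving out each sample included. The cause of these shifts was not tested.

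The replicate numbers were not taken as pairs in the reported fit, although replicate 2 had more peaks than replicate 1 in each eminence. The numbers were 163509 against 105456 in MGE, 142292 against 103633 in LGE and 182638 against 144195 in CGE. Deviations of same-numbered samples from their group means correlated at 0.11 for MGE and LGE, -0.00412 for MGE and CGE and 0.42 for LGE and CGE. The replicate block gave 8914 regions, 3 genes and 0 motifs, and together with the covered-length offset 11080 regions and 26 genes, and with the GC offset 12357 regions.

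The offset turned the log2 fold of Morn5 to -0.72 (with the block -0.73), of Gmppa to -0.34 (-0.33) and of Meis2 to 0.19 (0.20), and peaks at start sites turned Gmppa to -0.38. Of the 21 named regions 15 lost their call in the fit with CTX and 1, at Lhx6, with the offset. Of the 14 named genes 8 lost their call with the offset without a change of sign, and 10 with the block. In the simulation, with 100 of 77217 regions changed 2-fold, 14% of these were recovered; recovery with as many changed regions as were called here was not simulated.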

Other observations

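Ligands of the Fgf and Wnt families were not part of the comparisons above. Of 17 Fgf and Wnt signalling genes 0 were called, with 5 at an unadjusted p under 0.05 and a median log2 fold of 0.01. Over all 17145 tested genes 1567 reached that p. Of the 142 regions nearest to them 8 were higher in MGE and 8 lower, 11.3% in all beside 11.1% of all tested regions. Fgf8, a secreted patterning factor of the rostral telencephalon, had 36.3 and 17.9 CPM in MGE, 10.3 and 14.7 in LGE, and 13.1 and 15.2 in CGE (log2 fold 1.12, SE 0.35, edgeR adjusted p 0.396, with the covered-length offset 0.31). The loci that follow were picked after their values were seen. Wnt7b had 5 of 20 regions at its locus higher in MGE and 0 lower, and Spry1, a feedback inhibitor of Fgf signalling, 3 of 12 and 0, with 2 and 1 calls kept with the offset. Sfrp1, a secreted Wnt inhibitor, had 4 of 16 regions lower in MGE and 0 higher, 3 of them kept.

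Among 24 genes of migration and guidance 0 were called, and 21 of the 261 nearest regions were higher in MGE and 21 lower, 16.1% in all against 11.1% of all tested, with 12 and 15 of these calls kept with the covered-length offset. Sema3a, a repulsive guidance cue, had 5 of 13 regions at its locus lower in MGE and 0 higher (3 kept with the offset), and Cxcl12, a chemokine, 3 of 6 and 0 (2 kept). Slit1, a further repulsive cue, had 6 of 38 regions higher and 1 lower, and the offset kept the lower call alone. Robo1, a Slit receptor, had 4 higher and 6 lower of 45, with 1 and 5 kept. These loci were picked after their values were seen.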
